A study of Drosophila melanogaster with 24 samples.

Results

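The genes described here encode enzymes that make, interconvert or break down amino acids, followed in the abdominal carcass of Drosophila melanogaster females. Of 35 enzyme symbols on the list, 33 were found in the gene annotation. The symbols Gldc and Psat were absent from it and were skipped, and Eip55E was found under the annotation name Cth. All 33 genes were among the 14220 genes with counts and among the 10184 that passed the filter on low counts. RNA-seq covered 24 libraries, each from 1 pool of 10 carcasses, with totals of 29.4 to 31.5 M estimated counts in 23 libraries and 22.4 M in the standard-diet library of S2. The carcass is the abdominal fat body on its body wall once ovaries, gut and most Malpighian tubule tissue had been dissected away.

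The 4 groups of 6 libraries were Control populations C1 to C6 and Selected populations S1 to S6, each population raised as larvae on a standard and on a poor diet. Regime names are those of the labels; the series title names larval undernutrition as the subject. The poor diet had 0.25 of the standard concentration of yeast, sugars and cornmeal, and each 40 ml of larval food was seeded with roughly 200 eggs. Females of all groups were mated, were moved as adults to standard food on day 1 and were sampled at an age of about 4 days, so that diet means larval food throughout. The labels give no strain or genotype beyond the population. The titles of the libraries contradict the recorded characteristics on diet in 24 of 24 libraries and on regime in 12. The titles also name other populations than the characteristics do. The groups, the pairing of libraries by population and all directions given here, for regime as for diet, rest on the characteristics.

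The insect fat body stores and processes nutrients, much as liver and adipose tissue do in vertebrates. It takes up amino acids from the hemolymph, breaks some down for energy, and supplies building blocks for proteins, for glutathione and for methyl groups. Insects lack a complete urea cycle, but Drosophila has genes for argininosuccinate synthase and argininosuccinate lyase, which act one after the other to make arginine from citrulline and aspartate. Levels between genes are given per transcript length as TPM, which scales estimated counts by transcript length and library size, and levels of 1 gene between samples as CPM, counts scaled by normalised library size. Differences are log2 values ± SE, Selected minus Control or poor minus standard. A gene was called when its Benjamini-Hochberg adjusted p over all 10184 genes, from the quasi-likelihood F test of edgeR, lay below 0.05.

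The enzymes differed widely in level. The highest mean TPM over 24 libraries belonged to 4 genes. Gnmt, the glycine N-methyltransferase that disposes of surplus methyl groups, stood at 426 TPM. The S-adenosylmethionine synthetase gene Sam-S had 340 TPM, the phenylalanine hydroxylase gene Hn 323 TPM and the alanine-glyoxylate aminotransferase gene Agxt 291 TPM. The lowest mean levels were 0.99 TPM for cn, the kynurenine monooxygenase, and 3.24 TPM for Sardh, the sarcosine dehydrogenase that acts on the product of Gnmt. The median mean level of the 33 genes was 59.3 TPM, against 11.5 TPM over all genes tested. Few counts lay behind the lowest 2 genes: the smallest library value was 19 estimated counts for cn and 20 for Sardh, while Argl had at least 212 in each library.

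**Figure D1:**
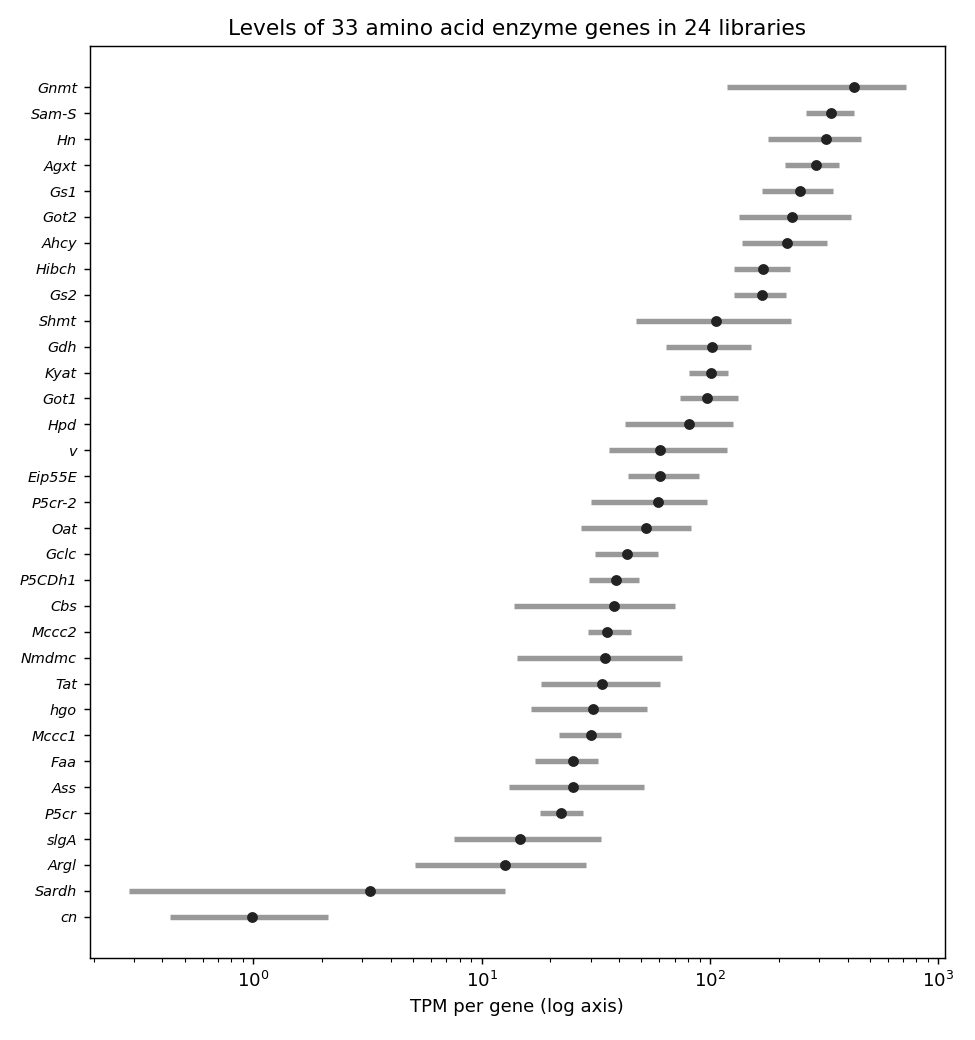
TPM of 33 amino acid enzyme genes (log axis), with a point for the mean of 24 libraries and a bar from the lowest to the highest library. Gnmt (426 TPM) and cn (0.99 TPM) form the ends, and Sardh has the widest bar.

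Their spread differed as widely. Sardh ranged 55.8-fold over the 24 libraries, from 0.587 to 32.7 CPM, and Control population C1 was far above the others with 29.3 CPM on standard and 32.7 CPM on poor diet. Gnmt ranged 7.00-fold, from 90.2 to 631.5 CPM. The steadiest were P5CDh1, the pyrroline-5-carboxylate dehydrogenase of proline breakdown, with a 1.33-fold range, and Mccc2 and Mccc1, the subunits of the leucine-degrading methylcrotonyl-CoA carboxylase, with 1.35-fold and 1.43-fold ranges. The SD between populations of the same regime had a median of 0.30 on the log2 scale over the 33 genes and 0.26 over all genes tested.

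Between regimes, no amino acid enzyme was called. Over all genes the test called 3, or 0.0295%, all lower in Selected. An unadjusted p under 0.05 was found for 6 of the 33 enzymes (3 higher and 3 lower in Selected), or 18.2%, beside 10.7% of all genes. Population means of log2 CPM did not overlap between the regimes for 0.786% of all genes and for 0 of the 33 enzymes. The median log2 difference was -0.02 over the 33 enzymes (16 positive, 17 negative) and 0.01 over all genes. In pooled carcasses, fewer cells of a type and less RNA per cell cannot be told apart, here and in the diet comparison.

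**Figure D2:**
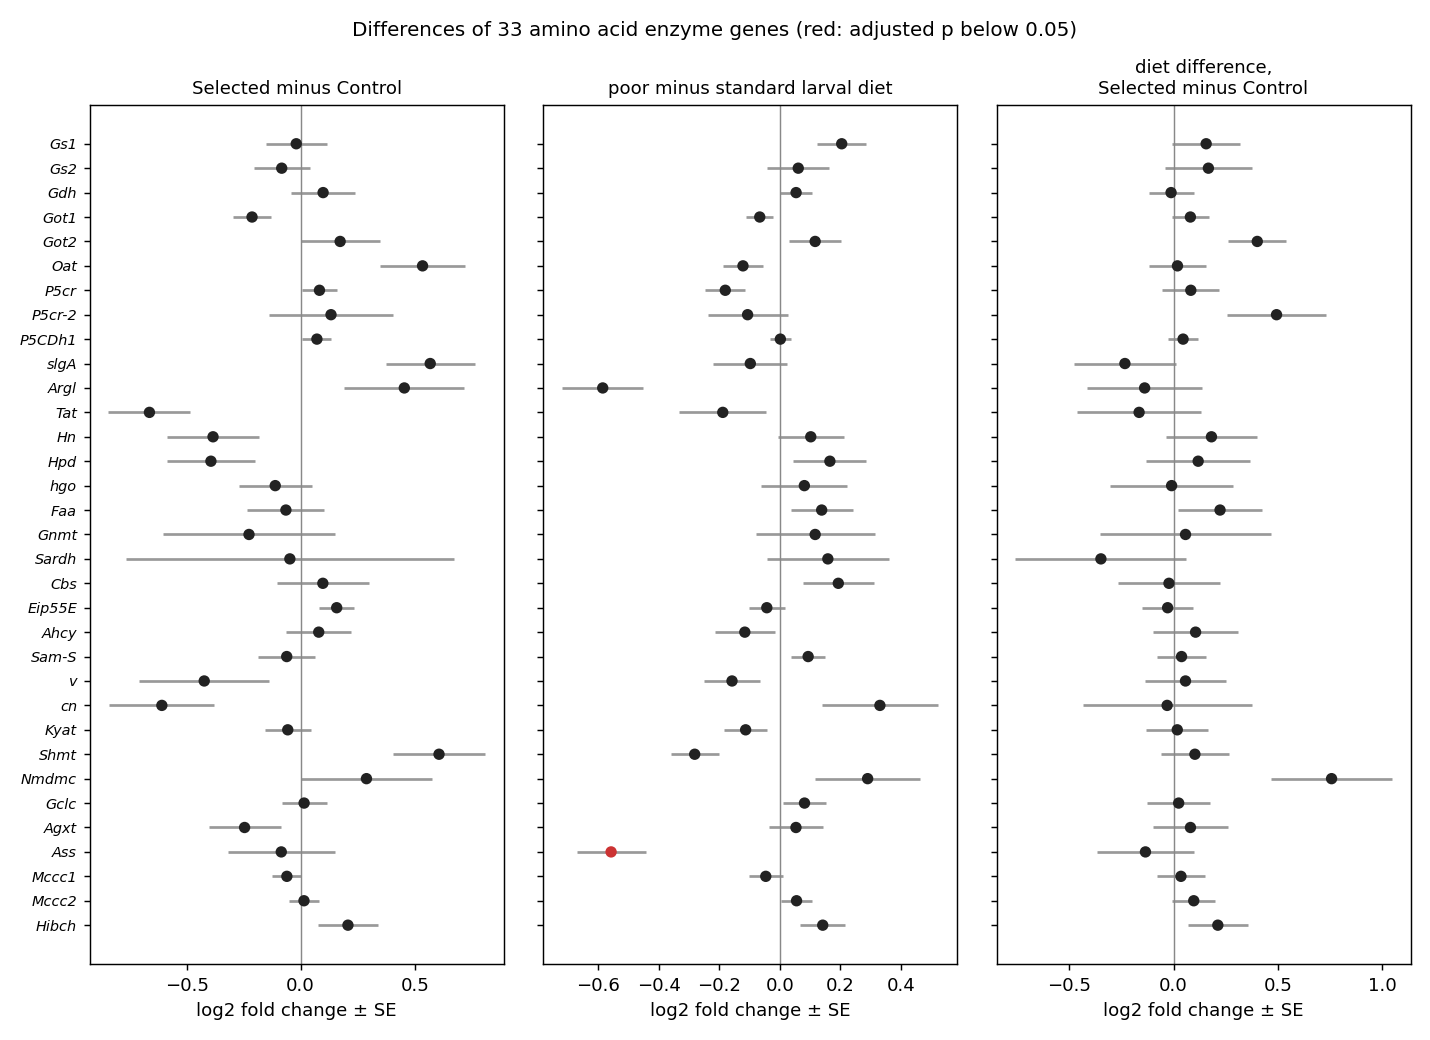
Log2 differences ± SE of the 33 enzymes for regime, for larval diet and for the difference of the diet response between regimes. The single red point, below an adjusted p of 0.05, is Ass at -0.56 for diet.

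Of the 33 enzymes, 5 break down phenylalanine and tyrosine, and none of them was called for regime. Their log2 differences ran from -0.66 for Tat to -0.06 for Faa, among 17 negative values of 33. Tat, the tyrosine aminotransferase (BDGP6.54, X, 14261223 to 14265379, overlapping CG13404 on the other strand and CG46317 on its own), had the smallest regime p of the 33. Its population means ran from 53.4 over a median of 74.0 to 83.1 CPM in Control and from 32.02 over 45.6 to 64.9 CPM in Selected. Of the Selected populations, 5 lay below each Control population, and S6 lay within the Control range. The log2 difference was -0.66 ± 0.18 (70.1 ± 12.4 against 45.3 ± 11.3 CPM, SD, n = 6 populations each), with an adjusted p of 0.205 in edgeR. With scores for germline and midgut markers as covariates the log2 difference of Tat was -0.46 (edgeR adjusted p = 0.482), and with DESeq2 its adjusted p was 0.0256. Over all genes DESeq2 called many more for regime than edgeR did.

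Hpd, the 4-hydroxyphenylpyruvate dioxygenase that takes the product of Tat, had population means from 63.7 over 93.6 to 118.9 CPM in Control and from 50.5 over 73.3 to 96.4 CPM in Selected. The ranges overlapped, with S3 below each Control population. S1 lay close to C4, the lowest of them, below it in mean CPM but above it in mean log2 CPM. The log2 difference was -0.39 ± 0.19 (edgeR adjusted p = 0.505). Hn, which makes tyrosine from phenylalanine, differed by -0.38 ± 0.20 on the log2 scale (456.6 ± 62.2 against 355.3 ± 109 CPM, SD, n = 6). The last steps differed by less than their SE: hgo, homogentisate dioxygenase, by -0.11 ± 0.16 and Faa, fumarylacetoacetase, by -0.06 ± 0.17. GstZ1 and GstZ2, glutathione transferases of the zeta class, to which the maleylacetoacetate isomerase of this pathway belongs, were not among the 33 and differed by -0.11 ± 0.12 and -0.14 ± 0.21.

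Several enzymes of proline and ornithine turnover had higher means in Selected populations, again without a call. Proline can be oxidised to pyrroline-5-carboxylate by slgA, the proline dehydrogenase, and ornithine reaches the same intermediate through Oat, the ornithine aminotransferase. The slgA gene (X, 21374002 to 21385159) overlaps asRNA:CR45611 on the other strand. Its population means ran from 21.9 over 28.1 to 50.4 CPM in Control and from 35.4 over 41.8 to 61.8 CPM in Selected. Control population C4 lay among the Selected values, and only S1 and S2 exceeded it. The log2 difference was 0.57 ± 0.19 (edgeR adjusted p = 0.305). For Oat (3L, 19647280 to 19649851) the means ran from 34.9 over 47.5 to 81.4 CPM in Control and from 61.1 over 77.4 to 81.8 CPM in Selected. The 6 Selected populations were close to each other, and Control population C1 was as high as they were. Its log2 difference was 0.53 ± 0.19 (50.9 ± 16.8 against 74.8 ± 7.55 CPM, SD, n = 6), with an edgeR adjusted p of 0.306. A limma fit that took population as random gave an adjusted p of 0.0304, and it called many more genes for regime. P5CDh1, which carries the intermediate on to glutamate, differed by 0.07 ± 0.06, and P5cr, a pyrroline-5-carboxylate reductase that makes proline, by 0.08 ± 0.08.

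Shmt is the serine hydroxymethyltransferase that converts serine to glycine and loads folate with a carbon unit. Its gene (X, 5913067 to 5916797) overlaps CG12236 and asRNA:CR44108 on the other strand. Population means of Shmt ran from 78.1 over 117.8 to 151.6 CPM in Control and from 129.9 over 176.8 to 250.1 CPM in Selected. Of the Selected populations, 4 lay above each Control population. The log2 difference was 0.61 ± 0.20 (118.2 ± 30.0 against 181.7 ± 46.3 CPM, SD, n = 6; edgeR adjusted p = 0.293). Got1, the cytosolic aspartate aminotransferase, had means from 119.0 over 138.0 to 164.7 CPM in Control and from 110.9 over 117.7 to 148.0 CPM in Selected. Here 4 Selected populations lay below each Control population while S2 stood at the top of its group, and the log2 difference was -0.21 ± 0.08 (edgeR adjusted p = 0.385). For cn, at 1.20 to 2.68 CPM in Control (median 1.66) and 0.87 to 1.41 CPM in Selected (median 1.13), the log2 difference was -0.61 ± 0.23 (edgeR adjusted p = 0.364), on levels of about 1 CPM. Eip55E, the cystathionine gamma-lyase that releases cysteine, ran from 51.9 over 60.7 to 74.0 CPM in Control and from 63.2 over 71.1 to 74.1 CPM in Selected. Its groups overlapped, and it differed by 0.16 ± 0.08 (edgeR adjusted p = 0.492).

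**Figure D3:**
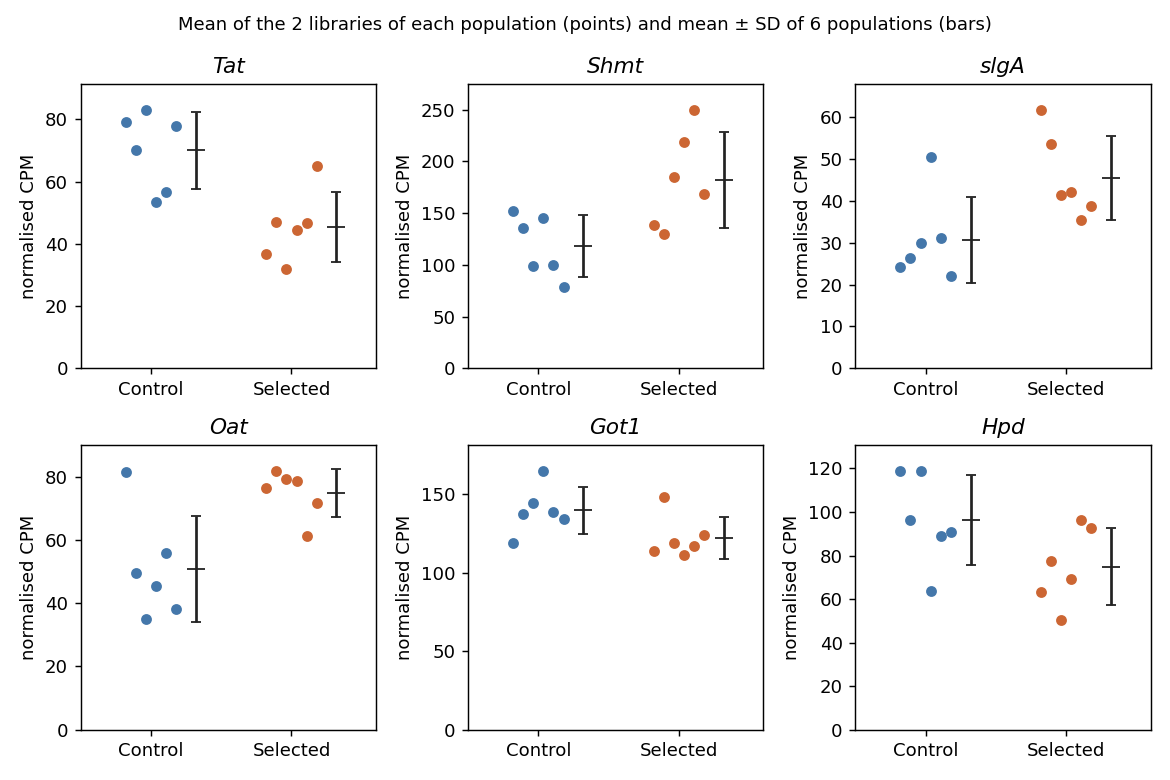
Population means in CPM of the 2 libraries of each population, Control and Selected, with mean ± SD of 6 populations, for Tat, Shmt, slgA, Oat, Got1 and Hpd. For Tat 5 Selected populations lie below each Control population, and for Shmt 4 lie above, while C1 for Oat and C4 for slgA fall among the Selected populations.

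The remaining enzymes differed by less than 2 SE between regimes. In the methyl cycle the log2 differences were -0.06 ± 0.13 for Sam-S, -0.23 ± 0.38 for Gnmt, -0.05 ± 0.72 for Sardh, 0.08 ± 0.14 for Ahcy, the adenosylhomocysteinase, and 0.10 ± 0.20 for Cbs, the cystathionine beta-synthase. Gclc, the catalytic subunit of the glutathione-forming glutamate-cysteine ligase, differed by 0.02 ± 0.10. In the tryptophan pathway, v, the tryptophan dioxygenase, differed by -0.42 ± 0.29 and Kyat, the kynurenine aminotransferase, by -0.06 ± 0.10. Gdh, the glutamate dehydrogenase, differed by 0.10 ± 0.14, Agxt by -0.25 ± 0.16 and Hibch, the hydroxyisobutyryl-CoA hydrolase of valine breakdown, by 0.21 ± 0.13. Argl differed by 0.45 ± 0.26, and Ass, which acts before it, by -0.08 ± 0.24, less than its SE.

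Markers of other tissues differed between libraries, and some lists leaned with regime, although no marker was called for it. All 21 germline and oocyte markers had positive log2 differences (median 0.94, 0 with an unadjusted p under 0.05 in edgeR), as did 9 of 11 eggshell genes tested (median 1.49, 4 with such a p). Of 16 hemocyte markers, 15 had negative differences (median -0.39, 7 with such a p). Over all genes 10.7% had such a p for regime and 51.7% had a positive difference. Genes of 1 list are not independent of each other, so these counts do not measure support for a regime difference. With germline and midgut scores as covariates, the log2 regime differences were 0.54 for Oat, 0.66 for Shmt and 0.40 for slgA (edgeR adjusted p = 0.621, 0.548 and 0.652), with the value for Tat given above. The part of the hemocyte and other markers in the regime values was not tested. The summed CPM of 21 germline and oocyte markers ran from 34.7 to 1983 in Control and from 457 to 2538 in Selected populations, with yl, the yolk receptor of the oocyte, at 0.31 to 669 CPM in single libraries. The 14 eggshell genes summed to 4.24 to 643 in Control and 7.08 to 1580 in Selected, and the 16 hemocyte markers to 2386 to 4296 and 2467 to 3075. Sums of 26 midgut enzymes ran from 1737 to 4660 in Control and from 1177 to 13429 in Selected. Sums of 20 Malpighian tubule markers ran from 365.5 to 577.8 and from 387.5 to 510.02, with Uro, urate oxidase, at 0 to 32.6 CPM and below 1 CPM in 8 libraries. Markers of the tissue itself differed in level. The yolk protein gene Yp1, made in female fat body, had 4418 to 70134 CPM, and the oenocyte gene Cyp4g1 35104 to 71027 CPM. On the same fat body list as Yp1, apolpp had 520 to 6523 CPM. Lsp2, also on it, had only 0.557 to 10.3 CPM and lay below 1 CPM in 4 libraries.

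Larval diet gave 1 call among the 33 enzymes, a lower level of Ass on the poor diet. Over all genes 0.864% were called higher and 0.265% lower on the poor diet. An unadjusted p under 0.05 was found for 5 of the 33 enzymes (15.2%; 1 higher and 4 lower), beside 17.6% of all genes. The median log2 difference was 0.05 over the enzymes (19 positive, 14 negative) and -0.03 over all genes. None of the 33 was higher in 12 of 12 populations, which held for 0.422% of all genes, and none was lower in 12 of 12, which held for 0.373%. Ass and Argl were the enzymes lower in 11 of 12, and 1.53% of all genes were lower in 11 or 12.

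Ass, the argininosuccinate synthase (3R, 6642262 to 6644434, overlapping CG31286 on the other strand), fell by 0.56 ± 0.11 on the log2 scale (edgeR adjusted p = 0.0381). In Control populations it ran from 23.7 over a median of 32.6 to 43.3 CPM on standard and from 15.6 over 25.7 to 30.3 CPM on poor diet. In Selected populations it ran from 20.02 over 31.1 to 70.1 CPM on standard and from 16.2 over 18.6 to 29.7 CPM on poor diet. Ranges overlapped, but within populations Ass was lower on poor diet in 6 of 6 Control and 5 of 6 Selected populations, with S5 the exception at a log2 difference of 0.21. The largest difference, -1.23, was in S6, whose standard library was the highest of all 24. The means were 34.8 ± 13.5 and 23.0 ± 5.83 CPM (SD, n = 12 populations). The call was lost when any population other than C5 was left out, with log2 differences of -0.63 to -0.50 and edgeR adjusted p of 0.0529 to 0.0861. Without the population block, the log2 difference was -0.60 and the edgeR adjusted p 0.162.

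Argl, the argininosuccinate lyase that splits the product of Ass into arginine and fumarate (2L, 8939725 to 8942105, overlapping CG9515 on its own strand and Tsp29Fb on the other), had a diet difference of similar size and missed the threshold. Control libraries ran from 8.51 over 15.1 to 27.95 CPM on standard and from 7.38 over 11.2 to 15.5 CPM on poor diet. Selected libraries ran from 15.0 over 22.3 to 40.8 CPM and from 7.53 over 14.9 to 23.2 CPM. The groups overlapped, and in 11 of 12 populations the poor-diet library was lower, with C5 the exception at 0.27. The log2 difference was -0.59 ± 0.13 (edgeR adjusted p = 0.0577; 0.0238 without C5, 0.0488 on the log2 values the authors deposited). Both genes were lower on poor diet in 10 of 12 populations, 5 of each regime. Ass had the higher TPM in 24 of 24 libraries, with means of 25.005 and 12.7 TPM.

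Shmt came next, at -0.28 ± 0.08 (edgeR adjusted p = 0.109). With DESeq2 its adjusted p was 0.0170, in a fit that called many more genes for diet. Control libraries ran from 86.1 over 139.7 to 161.7 CPM on standard and from 70.2 over 105.3 to 148.0 CPM on poor diet, and Selected libraries from 138.2 over 180.5 to 302.5 CPM and from 118.2 over 175.5 to 208.0 CPM. The ranges overlapped, and 10 of 12 populations were lower on poor diet. The exceptions were C5, unchanged at 99.7 CPM on both diets, and S6, at a log2 difference of 0.25.

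**Figure D4:**
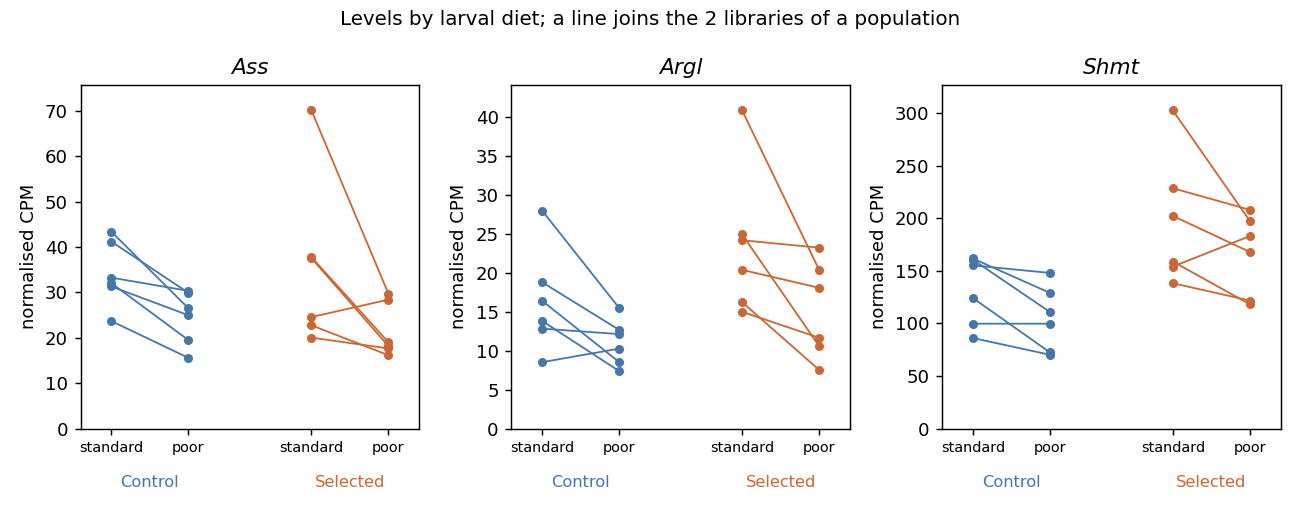
CPM of Ass, Argl and Shmt on standard and poor larval diet, a line for each of the 12 populations (Control left, Selected right). For Ass 11 of 12 lines go down, with S5 the exception, and for Argl 11 of 12, with C5 the exception.

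Among adult fat body markers, the yolk protein genes were lower on poor diet, as was Ass. The summed CPM of 15 such markers was lower in 12 of 12 populations when larvae had poor food, from 50306 to 139052 on standard and from 16243 to 81097 on poor diet. Of the 15, 4 were called lower: Yp1, Yp2 and Yp3, which encode yolk proteins, and fit, a female fat body gene, with log2 differences of -1.32, -1.50, -1.22 and -0.87. The other 11 were not called, and 5 of the 15 had positive values, from 0.07 for AkhR to 0.66 ± 0.23 for Obp99b. Yp1 alone, at 4418 to 70134 CPM, made up much of the sum. The part of these markers in the diet difference of Ass was not tested. With the germline and midgut scores as covariates the difference of Ass was -0.55 (edgeR adjusted p = 0.00754), and Argl and Shmt then reached adjusted p of 0.0360 and 0.0448. More genes were called for diet in this fit than without the covariates.

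Among the enzymes of glutamine, proline and valine metabolism, no diet difference was called. P5cr (3R, 19028931 to 19030159, overlapping Prp18 on the other strand) ran from 20.3 over 20.95 to 22.9 CPM in Control and from 19.2 over 22.0 to 26.7 CPM in Selected on standard diet. On poor diet it ran from 14.4 over 18.8 to 22.1 CPM in Control and from 17.96 over 19.8 to 22.3 CPM in Selected. It was lower in 9 of 12 populations, at -0.18 ± 0.07 (edgeR adjusted p = 0.200). Gs1, the mitochondrial glutamine synthetase, ran from 226.6 over 332.5 to 468.5 CPM on standard and from 281.8 over 397.1 to 525.8 CPM on poor diet over the 12 populations. Its poor-diet value was the higher one in 7 of 12, at 0.20 ± 0.08 (edgeR adjusted p = 0.228), and its gene overlaps ND-15 on the same strand. Hibch ran from 162.5 over 228.2 to 288.5 CPM and from 179.1 over 252.2 to 337.4 CPM. Its poor-diet value was the higher one in 10 of 12 populations, all but C5 and S4, at 0.14 ± 0.07 (edgeR adjusted p = 0.338). Oat had the lower value on poor diet in 9 of 12 populations, at -0.12 ± 0.06, from 41.0 to 86.4 CPM on standard and 28.6 to 88.8 CPM on poor diet (medians 65.9 and 63.8). The low-level cn was higher in 8 of 12, at 0.33 ± 0.19, with medians of 1.17 and 1.44 CPM. The other 25 enzymes had log2 diet differences between -0.19 and 0.29, none of them called.

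No enzyme was called for a response to diet that differed between regimes, nor was any of the 10184 genes (0%). With DESeq2, 1 gene was called, which was not among the 33. Unadjusted p lay under 0.05 for 2 of the 33 enzymes, or 6.06%, beside 1.52% of all genes. These were Got2, the mitochondrial aspartate aminotransferase, and Nmdmc, a folate enzyme that oxidises methylenetetrahydrofolate with NAD. Got2 (2L, 1984512 to 1987758) overlaps CG7289 on the other strand. Nmdmc (3R, 9042508 to 9050555) overlaps Rel on its own strand and Mst85C on the other. Got2 and Nmdmc were both higher on poor diet in 6 of 6 Selected populations and in 3 of 6 Control populations. For Got2 the difference in S2 was only 0.01 on the log2 scale. Both genes were picked by their interaction p, so these counts add no support to it.

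For Got2, Control libraries ran from 196.3 over 265.3 to 420.4 CPM on standard and from 207.6 over 270.02 to 319.2 CPM on poor diet. Selected libraries ran from 230.3 over 270.7 to 327.0 CPM and from 231.9 over 325.1 to 545.0 CPM, the highest value belonging to S5. The Selected diet difference exceeded the Control one by 0.40 ± 0.14 (unadjusted p = 0.0131 and adjusted p = 0.999948 in edgeR). For Nmdmc, Control libraries ran from 16.6 over 24.8 to 62.2 CPM and from 17.5 over 23.1 to 49.6 CPM, and Selected libraries from 16.5 over 26.4 to 40.7 CPM and from 30.3 over 39.7 to 76.3 CPM. The groups overlapped, and the difference of differences was 0.76 ± 0.29 (unadjusted p = 0.0216 in edgeR). Next came P5cr-2, the other pyrroline-5-carboxylate reductase gene, at 0.49 ± 0.24 (unadjusted p = 0.0573 in edgeR). It was lower on poor diet in 6 of 6 Control populations and higher in 4 of 6 Selected ones, with group medians of 53.3 and 43.6 CPM in Control and 56.4 and 50.6 CPM in Selected.

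Enzymes that share a reaction kept a fixed order in nearly all libraries. Gs1, at a mean of 247 TPM, exceeded Gs2, the cytosolic glutamine synthetase, at 169 TPM, in 23 of 24 libraries. Got2, at 229 TPM, exceeded Got1, at 96.6 TPM, in 24 of 24, with log2 ratios of Got1 to Got2 from -2.30 to -0.54. P5cr-2, at 59.3 TPM, exceeded P5cr, at 22.3 TPM, in 24 of 24. The subunits Mccc1 and Mccc2 lay closest, at 30.1 and 35.5 TPM, and their log2 ratio stayed between -0.61 and 0.02. Gs2 ran from 149.7 to 338.1 CPM and differed by -0.08 ± 0.12 between regimes and 0.06 ± 0.10 between diets. For Mccc1 the regime and diet differences were -0.06 ± 0.06 and -0.05 ± 0.06, and for Mccc2 they were 0.01 ± 0.07 and 0.06 ± 0.05.

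The mean level of P5cr-2 (3R, 17534815 to 17537136, overlapping another gene on the other strand) differed little between regimes, by 0.13 ± 0.27 on the log2 scale, but its annotated transcripts did not carry the counts in like shares. Transcript FBtr0083454 held 52.1% to 96.5% of the estimated counts of the gene in Control populations (median 73.4%). In Selected populations it held 0% in S2, S3, S5 and S6, 1.54% in S1 and 19.3% in S4. It had 396 to 1755 estimated counts in each of the 12 Control libraries. In Selected populations it had 0 in both libraries of S2, S3, S5 and S6, 32 and 0 in S1, and 439 and 140 in S4 (standard and poor diet). In Selected populations the counts lay on FBtr0083455, at 41.7% to 75.3% against 0.558% to 40.9% in Control, and on FBtr0321265, at 24.5% to 55.9% against 0% to 6.75%. These 3 of the 86 tested transcripts of the enzymes had shares that did not overlap between regimes. All 3 belong to this gene and share its total, and over all genes 0.671% of transcripts did not overlap.

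The transcripts of P5cr-2 share most of their sequence. FBtr0083454 has 3 exons, starts at 17535685 and encodes 273 residues. FBtr0083455 starts 2 bases later, but its second exon begins 66 bases further upstream and its last exon ends 213 bases further downstream. Its annotated start codon lies at 17536251, which leaves 174 residues. FBtr0321265 has its first exon 751 bases upstream, shares the other exons of FBtr0083454 and encodes 252 residues. Reads in the shared exons are divided between transcripts by the quantification of the authors, so a share is an estimate, and the counts were not checked on reads here. In the limma diffSplice test of transcript use, chosen after these values were seen, FBtr0083454 had an adjusted p of 0.142 for regime; without the filter on low counts it was 0.00178.

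**Figure D5:**
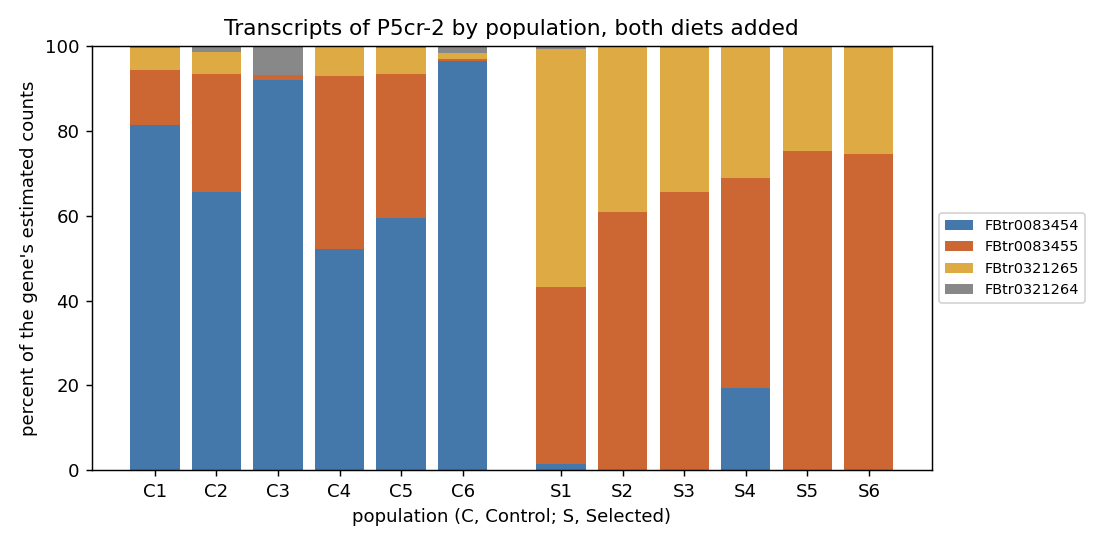
Share of the estimated counts of P5cr-2 carried by each of its 4 transcripts in each population, in percent, both diets added. FBtr0083454 holds 52.1% to 96.5% in C1 to C6, 1.54% in S1, 19.3% in S4 and 0% in the other 4 Selected populations.

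Across the 22 enzymes with at least 2 tested transcripts, the regime test of transcript use called 1 of 86 transcripts, beside 0.361% of all 17154. This was the transcript FBtr0089429 (2L, 107761 to 114432) of Sam-S, the S-adenosylmethionine synthetase gene, which has 12 transcripts in the annotation. It held 0.753% to 18.7% of the gene's counts in Control populations (median 4.14%) and 7.99% to 16.96% in Selected (median 11.2%). The 6 Selected populations lay above 5 of the Control populations, while C4 was the highest of all and C2 the lowest. Relative to the other transcripts of Sam-S its log2 use was 1.51 higher in Selected (limma diffSplice adjusted p = 0.00309). Without C2 the value was 1.02 (adjusted p = 0.0968), and without C4 it was 2.00. For diet, 0.769% of all transcripts and 0 of the 86 were called. The smallest diet p of the enzymes was that of FBtr0083454 of P5cr-2, with log2 use of -0.74 on poor diet (limma diffSplice adjusted p = 0.102). In S2, S3, S5 and S6 this transcript had 0 estimated counts on both diets, so its use there could not be compared between diets.

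Other genes of amino acid metabolism gave no call. Of 51 other amino acid enzymes, 24 genes of amino acid transport and sensing and 18 aminoacyl-tRNA synthetases tested, 0 were called for regime, diet or interaction in edgeR. At an unadjusted p under 0.05 the numbers for regime were 11, 1 and 4, for diet 3, 5 and 3, and for interaction 1, 0 and 0. Over all genes the shares with such a p were 10.7% for regime, 17.6% for diet and 1.52% for interaction. Their median log2 differences lay between -0.10 and 0.02 for regime and between -0.04 and -0.02 for diet. Among the other enzymes, regime differences with small p were those of CG10621 at 0.73 ± 0.18 (edgeR adjusted p = 0.178) and Dbct at -0.38 ± 0.11. For diet the smallest p were those of CG6415 at -0.44 ± 0.11 (edgeR adjusted p = 0.0800), SpdS, spermidine synthase, at -0.35 ± 0.09 and CG10621 at -0.62 ± 0.20, and for interaction aay at 0.40 ± 0.13, ppl at 0.21 ± 0.12 and ple at -0.72 ± 0.47.

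Among transport and sensing genes, the smallest diet p was that of slif, an amino acid transporter of the fat body, at -0.74 ± 0.19 (edgeR adjusted p = 0.0793), before Nprl3 at -0.27 ± 0.08 and Gcn2, the kinase that senses uncharged tRNA, at -0.16 ± 0.05. For regime they were RagA-B at -0.24 ± 0.08, JhI-21 at 0.40 ± 0.19 and CG13384 at -0.22 ± 0.11, and for interaction mnd at -0.21 ± 0.11, Thor at 0.32 ± 0.21 and acs at -2.22 ± 1.54. Among the tRNA synthetases the regime values were -0.21 ± 0.06 for AspRS, 0.22 ± 0.08 for GlnRS and 0.18 ± 0.07 for AsnRS. Their diet values were -0.22 ± 0.06 for SerRS, -0.19 ± 0.08 for CysRS and -0.19 ± 0.08 for TrpRS. The interaction values were 0.26 ± 0.16 for LeuRS, 0.14 ± 0.11 for TyrRS and 0.19 ± 0.15 for AsnRS.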

How the data were processed

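Transcripts were quantified by the authors with kallisto 0.46.2 on build BDGP6, and limma and edgeR were used too, per the submitters' processing notes. Each library's deposited table gives estimated counts and TPM per transcript, per the file headers; a deposited table of the series holds log2 CPM, named voom-normalised by the authors. No source used here states whether strand was used in counting, and reads of overlapping genes cannot be told apart. Of 30944 transcripts, 30811 joined to BDGP6.54; the other 133 carried 0.282% of counts. Estimated counts were summed per gene and rounded. TPM was summed per gene for levels between genes.

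Regime was tested with edgeR 4.0.16 (R 4.3.3; TMM, filterByExpr, quasi-likelihood F test) on 12 population sums. Diet and its interaction with regime were tested on 24 libraries with population as a block, a pairing from the characteristics that the titles contradict. Both libraries of a population deviated together at a mean r of 0.22 (-0.23 to 0.69). SE is the log2 difference over the root of F. Populations are the replicates, and each library is 1 pool. Transcript use was tested with diffSplice of limma 3.58.1 on voom values. Alternatives used DESeq2 1.42.0, other scaling, no filter, the authors' log2 values, tissue covariates (germline and midgut scores), and left-out populations.

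Members and lists were chosen with earlier results of these data known. Values by sample are given for called members, for the 8, 8 and 3 smallest p in the regime, diet and interaction tests and for 4 enzyme pairs; other lists are named by their calls or their 3 smallest p, of which 1 gene is not reported here. P5cr-2 and Sam-S transcripts were chosen after their values were seen. Counting error weighs most on cn and Sardh.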

Additional observations from a re-analysis of the deposited data

Results flagged for a closer look

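In 7 of 132 groups of 6 libraries, 1 library stood apart from the other 5 by Dixon's criterion for the gap to the nearest library over the range, which chance meets in about 1 of 20 groups. In Control libraries on poor diet, C5 was lowest for Gs1, at 281.8 CPM against 385.4 to 429.4 CPM in the others, and for Tat, at 46.7 CPM against 65.0 to 79.2 CPM, and C1 was highest for Sardh, at 32.7 CPM against 1.97 to 5.02 CPM. In Control libraries on standard diet, C4 was lowest for Faa, at 17.8 CPM against 31.3 to 32.1 CPM. In Selected libraries on poor diet, S5 was lowest for Oat, at 57.0 CPM against 70.7 to 77.3 CPM, and for Sardh, at 2.89 CPM against 6.92 to 9.71 CPM. In Selected libraries on standard diet, S4 was lowest for P5CDh1, at 78.0 CPM against 90.8 to 96.2 CPM.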

How the results depend on the processing

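For regime, 3 genes were called over the whole table, and 221 with DESeq2, 5 on the authors' log2 values, 155 with population as a random effect, 0 with the replicate block of like-numbered populations, and 1 to 36 with a population left out (1 without C1, C5, S1 or S3, 36 without C4, 5 without S4). Enzymes called for regime numbered 0, and 1 with DESeq2 (Tat) and 1 with the random effect (Oat). For diet, 88 genes were called higher and 27 lower. Both directions together gave 95 with RLE factors, 84 without the filter, 545 with DESeq2, 139 on the authors' values, 366 with tissue covariates and 21 with no replicate block. With a population left out the number was 3 (without S1) to 139 (without C5); it was 4 without S5, 22 without S3, 23 without S2, 38 without S4, 40 without C3, 43 without S6, 47 without C4, and 49 without C1 or C2. Enzymes called for diet numbered 1, and 3 with DESeq2, 2 on the authors' values, 3 with tissue covariates, 0 with no replicate block, and 0 to 2 with a population left out. For interaction, DESeq2 called 1 gene and no setting called an enzyme. Transcripts called by use numbered 62, and 29 with the replicate block, 110 without the filter and 36 to 85 with a population left out (36 without S3, 39 without S1, S2 or S4, 41 without C1). Those of the enzymes numbered 1, and 0 with the replicate block, 2 without the filter and 0 to 1 with a population left out. The cause was not tested.

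Like-numbered Control and Selected populations did not deviate together (mean r -0.26, from -0.39 to -0.02). These values cannot decide whether the numbers pair them, since the 2 libraries of a population had r as low as -0.23. With the replicate block, Sam-S FBtr0089429 had a log2 use of 1.30 (limma adjusted p = 0.104) and P5cr-2 FBtr0083454 an adjusted p of 0.386. No called difference changed sign. Among uncalled ones, 9 of 230 regime, 2 of 197 diet and 9 of 197 interaction values had another sign under other settings, and 22, 6 and 46 of 396 with a population left out. Counting depth limits cn and Sardh.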
